A study of Neurospora crassa with 4 samples.

Results

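The difference between a *czt-1* deletion strain of *Neurospora crassa* (Δ*czt-1*) and the wild type under staurosporine (STS) was read from 1 RNA-seq library of each strain. The genes were chosen by level alone: a gene was kept when its FPKM, the read number scaled to transcript length and to the mapped reads of the library, was at least 1 in either STS library. This left 7763 of the 9691 rows in the tables, and 1928 rows were not measured by this rule. For each gene the difference is log2(FPKM + 1) in Δ*czt-1* STS minus log2(FPKM + 1) in wild type STS. A positive value means a higher level in Δ*czt-1* STS, and a value of 1 or -1 a 2-fold difference in FPKM + 1. All folds given are folds of FPKM + 1, which are smaller than those of FPKM itself, mostly so in low genes. Of the rows just inside the limit, NCU07622 had 1.00 FPKM in Δ*czt-1* STS and 0.736 FPKM in wild type STS, and of those just outside, NCU08058 had 0.998 and 0.595 FPKM in the same libraries.

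The series holds 4 libraries, 1 for each of Δ*czt-1* STS, wild type STS, Δ*czt-1* DMSO and wild type DMSO. Conidia were germinated in minimal medium for 6 h under constant light and then exposed for 1 h to 20 μM staurosporine or to its solvent DMSO, and poly(A) RNA of the germlings was sequenced. Δ*czt-1* is a single strain of the public deletion collection that lacks NCU09974, and apart from that deletion the labels give no other allele for it. There were no replicates, so no value has a replicate error, no test was made, and every count is a count by size. Fewer cells with a transcript and less of it per cell cannot be told apart in such bulk cultures.

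The STS libraries summed to 550288 FPKM in Δ*czt-1* and 570298 FPKM in the wild type, and the DMSO libraries to 877439 FPKM in Δ*czt-1* and 1072129 FPKM in the wild type. No source used here gives the number of reads. In the 100 lowest non-zero genes over 1 kb, the product of FPKM and gene length in kb had a median of 0.0992 in Δ*czt-1* STS, 0.109 in wild type STS, 0.0468 in Δ*czt-1* DMSO and 0.0499 in wild type DMSO. If that product is the worth of 1 read, a gene of the median length of 2.37 kb at 10 FPKM rested on about 238 reads in Δ*czt-1* STS, 216 in wild type STS, 505 in Δ*czt-1* DMSO and 474 in wild type DMSO. By this estimate, which no read total could check, the STS libraries had similar numbers of reads and fewer than the DMSO libraries. A value of 0 stood in 17 of the measured rows in Δ*czt-1* STS and in 79 in wild type STS. All of these rows count as 2-fold different by construction, since their other value had to reach the limit.

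Staurosporine is a bacterial alkaloid that inhibits many protein kinases and kills *N. crassa* cells with features of programmed cell death. CZT-1 is a fungal zinc cluster transcription factor, a class of DNA-binding activators known for control of metabolism and of multidrug resistance. ABC transporters are membrane pumps driven by ATP that export drugs from fungal cells, and the induction of such pumps by zinc cluster factors is a common route to drug tolerance. The comparison asks which transcripts differ between the Δ*czt-1* and wild type strains once the drug is present.

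With staurosporine, the strains were at least 2-fold apart in 1821 of 7763 genes (23.5%). They split into 857 genes that were higher in Δ*czt-1* STS (11% of those measured) and 964 that were lower (12.4%). A difference of at least 4-fold was seen in 125 genes that were higher and 211 that were lower, and of at least 8-fold in 20 and 26 genes. The median over all genes was -0.03 and the SD over genes 0.93, so the libraries were centred on each other. By any size, 3782 genes were higher and 3981 lower. The median gene had 14.7 FPKM in Δ*czt-1* STS and 15.1 FPKM in wild type STS. The genes that were 2-fold higher had medians of 12.53 FPKM in Δ*czt-1* STS and 3.73 FPKM in wild type STS. Those that were 2-fold lower had medians of 7.06 FPKM in Δ*czt-1* STS and 22.4 FPKM in wild type STS. Near the 2-fold limit, NCU09220 had 26.9 FPKM in Δ*czt-1* STS and 12.9 FPKM in wild type STS and counted as higher, whereas NCU04143, with 36.0 and 17.5 FPKM in the same libraries, did not.

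The direction differed between genes described only as hypothetical proteins and the rest. Among 3402 genes whose description is only "hypothetical protein", 572 (16.8%) were at least 2-fold higher in Δ*czt-1* STS and 322 (9.47%) at least 2-fold lower. Among the other 4361 genes, which include those with no description at all, 285 (6.54%) were higher and 642 (14.7%) lower. The levels of these groups were not compared, and the split was not repeated at a higher FPKM limit. Over all genes, the median in wild type STS was 3.73 FPKM for 2-fold higher genes and 22.4 FPKM for 2-fold lower ones.

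**Figure D1:**
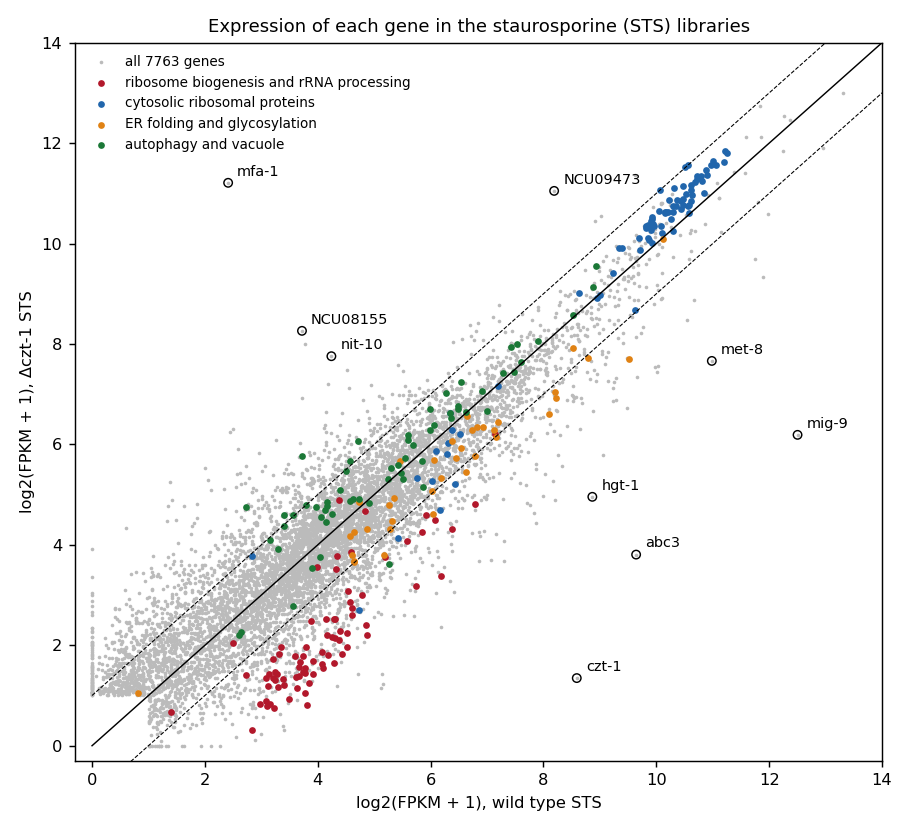
Each point is a gene, with log2(FPKM + 1) in Δ*czt-1* STS on the vertical axis and in wild type STS on the horizontal axis; the solid line marks equal levels and the dashed lines a 2-fold difference, and circles mark named genes. Genes of ribosome biogenesis lie almost wholly below the lower dashed line, with a median difference of -2.03, whereas 66 of 82 cytosolic ribosomal proteins lie above the solid line.

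The deleted gene was read first. The level of *czt-1* (NCU09974) was 1.54 FPKM in Δ*czt-1* STS and 384 FPKM in wild type STS, and 2.26 FPKM in Δ*czt-1* DMSO and 19.7 FPKM in wild type DMSO. It was thus near 0 in both libraries labelled Δ*czt-1*. The difference of -7.24 was the largest negative one. Its neighbour in the NC12 annotation is *abc3* (NCU09975), described as multidrug resistance protein 3 and a pump of the ABC family. It had 12.99 FPKM in Δ*czt-1* STS and 798 FPKM in wild type STS, a difference of -5.84, and 13.4 FPKM in Δ*czt-1* DMSO and 6.79 FPKM in wild type DMSO. Thus *abc3* was high in wild type STS alone and stayed near its DMSO level in Δ*czt-1* STS. The next gene on that side, NCU09976, is described as a rhamnogalacturonan acetylesterase, an enzyme of pectin breakdown. It was picked after its values were seen and had 0.308 FPKM in Δ*czt-1* STS and 9.47 FPKM in wild type STS (-3.002), with 0.459 FPKM in Δ*czt-1* DMSO and 0.126 FPKM in wild type DMSO. The 2 genes beyond it did not follow: NCU09977 was below the limit of 1 FPKM in both STS libraries, and NCU09978 had 1.04 FPKM in Δ*czt-1* STS and 1.13 FPKM in wild type STS. On the other side of *czt-1*, NCU09973 had 23.5 FPKM in Δ*czt-1* STS and 13.7 FPKM in wild type STS (0.74) and was already higher in the mutant without the drug, with 31.2 FPKM in Δ*czt-1* DMSO and 7.88 FPKM in wild type DMSO (1.86). NCU09972 had 50.3 FPKM in Δ*czt-1* STS and 97.9 FPKM in wild type STS (-0.95). NCU09971 had 10.3 FPKM in Δ*czt-1* STS and 11.02 FPKM in wild type STS (-0.10).

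The other genes far lower in Δ*czt-1* STS were led by *mig-9* (NCU09141), described as a pyridoxal reductase, an enzyme of the vitamin B6 group. It had 72.0 FPKM in Δ*czt-1* STS and 5802 FPKM in wild type STS, a difference of -6.31, and 37.1 FPKM in Δ*czt-1* DMSO and 84.9 FPKM in wild type DMSO. In wild type STS it ranked among the most abundant transcripts, which it did in no other library. Its neighbour NCU09140, with no known function, had 1.68 FPKM in Δ*czt-1* STS and 34.3 FPKM in wild type STS (-3.72) and 2.18 FPKM in Δ*czt-1* DMSO and 2.19 FPKM in wild type DMSO. The carboxylesterase gene NCU10680, of an enzyme family that cleaves esters, had 1.203 FPKM in Δ*czt-1* STS and 33.7 FPKM in wild type STS (-3.98) and 6.36 FPKM in Δ*czt-1* DMSO and 8.74 FPKM in wild type DMSO. NCU10092, of unknown function, had 1.34 FPKM in Δ*czt-1* STS and 34.8 FPKM in wild type STS (-3.94) and 2.03 FPKM in Δ*czt-1* DMSO and 0.599 FPKM in wild type DMSO. Among these genes, *abc3*, *mig-9*, NCU09140 and NCU10092 share a pattern: wild type STS was far above the 3 other libraries, which lay closer together. The same held for NCU10687, given below.

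Most other genes in this group were also expressed with DMSO and were lower in Δ*czt-1* STS than in any other library. The gene *hgt-1* (NCU10021), for a monosaccharide transporter of the MFS family that takes up sugar, had 30.05 FPKM in Δ*czt-1* STS and 466 FPKM in wild type STS (-3.91) and 121 FPKM in Δ*czt-1* DMSO and 158 FPKM in wild type DMSO. NCU08674, for a pentatricopeptide repeat protein, a class of proteins that bind organelle RNA, had 4.17 FPKM in Δ*czt-1* STS and 71.8 FPKM in wild type STS (-3.82) and 51.3 FPKM in Δ*czt-1* DMSO and 48.2 FPKM in wild type DMSO. NCU09648, for an aldehyde dehydrogenase, had 7.37 FPKM in Δ*czt-1* STS and 84.1 FPKM in wild type STS (-3.35) and 41.5 FPKM in Δ*czt-1* DMSO and 39.1 FPKM in wild type DMSO. NCU09695, whose description is PaxU, had 12.04 FPKM in Δ*czt-1* STS and 134 FPKM in wild type STS (-3.37) and 39.7 FPKM in Δ*czt-1* DMSO and 42.6 FPKM in wild type DMSO. The last pair are described only as hypothetical proteins. NCU06331 had 11.9 FPKM in Δ*czt-1* STS and 157 FPKM in wild type STS (-3.61) and 53.7 FPKM in Δ*czt-1* DMSO and 56.4 FPKM in wild type DMSO. NCU10687 had 20.5 FPKM in Δ*czt-1* STS and 232 FPKM in wild type STS (-3.44) and 25.9 FPKM in Δ*czt-1* DMSO and 17.8 FPKM in wild type DMSO. In NCU10687 the Δ*czt-1* STS level was within the range of the DMSO libraries, unlike the other 5.

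The largest positive difference belonged to *mfa-1* (NCU12157), which encodes the pheromone precursor of *mat a* strains, with 2367 FPKM in Δ*czt-1* STS and 4.32 FPKM in wild type STS (8.80). It differed likewise without the drug, with 703 FPKM in Δ*czt-1* DMSO and 3.72 FPKM in wild type DMSO (7.22). *ccg-4* (NCU02500), the pheromone gene of *mat A* strains, had 0.0847 FPKM in Δ*czt-1* STS and 6.39 FPKM in wild type STS and 0.115 FPKM in Δ*czt-1* DMSO and 3.83 FPKM in wild type DMSO. The gene *matA-1* (NCU01958), of the *mat A* locus, was listed at 0 in both Δ*czt-1* libraries, against 2.10 FPKM in wild type STS and 0.940 FPKM in wild type DMSO. Of the pheromone receptor genes, *pre-1* (NCU00138) had 1.49 FPKM in Δ*czt-1* STS and 1.54 FPKM in wild type STS, and *pre-2* (NCU05758) had 2.37 FPKM in Δ*czt-1* STS and was listed at 0 in wild type STS. Of 5 mating genes, 2 were at least 2-fold higher and 2 lower. The libraries therefore differ in their mating genes with and without staurosporine. The labels do not give the mating type of the strains, and an effect of mating type and one of the *czt-1* deletion cannot be told apart in these libraries. This limit also holds for the other genes that differed between the strains, apart from *czt-1* itself.

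The other genes far higher in Δ*czt-1* STS were mostly of unknown function and low with DMSO. NCU08155 had 306 FPKM in Δ*czt-1* STS and 12.2 FPKM in wild type STS (4.54) and 4.29 FPKM in Δ*czt-1* DMSO and 5.47 FPKM in wild type DMSO. NCU03684 had 254 FPKM in Δ*czt-1* STS and 12.7 FPKM in wild type STS (4.22) and 6.75 FPKM in Δ*czt-1* DMSO and 9.04 FPKM in wild type DMSO. NCU08282 had 74.9 FPKM in Δ*czt-1* STS and 4.42 FPKM in wild type STS (3.81) and 1.21 FPKM in Δ*czt-1* DMSO and 0.842 FPKM in wild type DMSO. In each of these the wild type STS level was above both DMSO levels and the Δ*czt-1* STS level far above all. The same held for NCU11531 with 19.2 FPKM in Δ*czt-1* STS against 0.520 FPKM in wild type STS (3.73). It held too for NCU05477 with 28.8 FPKM in Δ*czt-1* STS against 1.67 FPKM in wild type STS (3.48). NCU01298 had 26.3 FPKM in Δ*czt-1* STS and 1.54 FPKM in wild type STS (3.43). NCU08847 had 78.3 FPKM in Δ*czt-1* STS and 4.64 FPKM in wild type STS (3.81), but without the drug the mutant was the lower one, with 5.32 FPKM in Δ*czt-1* DMSO and 17.4 FPKM in wild type DMSO.

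Transporters made up most of the rest. NCU09909, a urea active transporter, had 37.3 FPKM in Δ*czt-1* STS and 1.62 FPKM in wild type STS (3.87) and 5.93 FPKM in Δ*czt-1* DMSO and 4.92 FPKM in wild type DMSO. The nitrate transporter gene *nit-10* (NCU07205) had 215 FPKM in Δ*czt-1* STS and 17.9 FPKM in wild type STS (3.52) and 26.7 FPKM in Δ*czt-1* DMSO and 31.1 FPKM in wild type DMSO. NCU10368, an MFS transporter, had 45.4 FPKM in Δ*czt-1* STS and 2.99 FPKM in wild type STS (3.54) and 9.55 FPKM in Δ*czt-1* DMSO and 9.71 FPKM in wild type DMSO. These 3 genes were thus lowest in wild type STS and highest in Δ*czt-1* STS. NCU16024, without a description, had 14.1 FPKM in Δ*czt-1* STS and was listed at 0 in wild type STS, with 24.5 FPKM in Δ*czt-1* DMSO and 22.9 FPKM in wild type DMSO, so no fold is given for it.

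**Figure D2:**
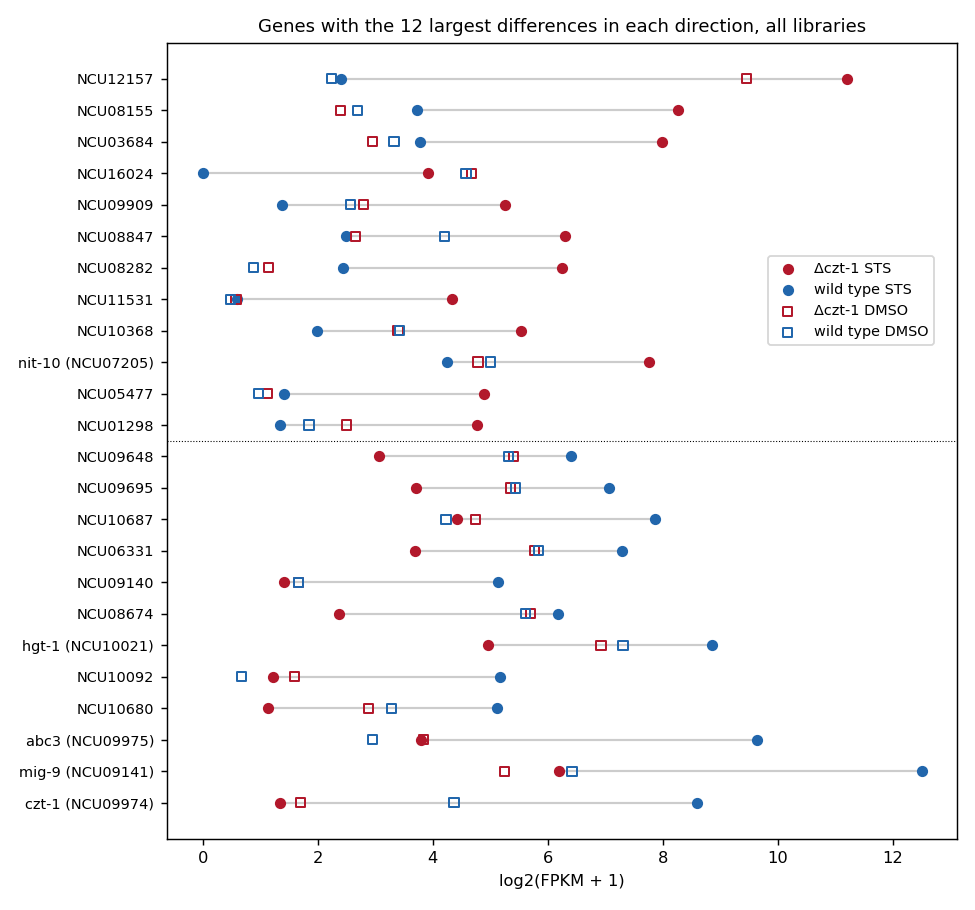
For the 12 genes with the largest difference in each direction, points give log2(FPKM + 1) in each library, with filled circles for STS, open squares for DMSO, red for Δ*czt-1* and blue for wild type; grey lines join the STS values. The lower 12 genes have wild type STS to the right and the upper 12 have Δ*czt-1* STS to the right, and the open squares lie furthest apart for *mfa-1* (NCU12157) and *czt-1*.

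Several of the strongest differences were in adjacent genes. In the gene order of the NC12 assembly, 7233 measured genes had a measured neighbour, and 16.6% of them lay next to a gene that was at least 2-fold higher in Δ*czt-1* STS. Among the 746 such genes that were themselves 2-fold higher, 230 (30.8%) had a higher neighbour and 96 (12.9%) a lower one. Of 914 genes that were 2-fold lower, 296 (32.4%) had a lower neighbour and 99 (10.8%) a higher one, while over all 7233 genes 20.8% had a lower neighbour. These are shares without a test, and reads from overlapping transcripts could be counted for both genes where counting ignores the strand, and none of the sources used here says whether it did.

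Adjacent genes that each differed at least 4-fold and reached 10 FPKM were found 13 times, 3 with higher and 10 with lower levels. Over all measured genes, without the limit of 10 FPKM, 125 were at least 4-fold higher and 211 lower. How many such runs these numbers alone would give was not tested. The higher ones were NCU08155 with NCU08156 (41.3 FPKM in Δ*czt-1* STS against 4.91 FPKM in wild type STS, 2.84), NCU08282 with NCU08281 (121 FPKM in Δ*czt-1* STS against 12.2 FPKM in wild type STS, 3.21) and NCU03684 with NCU03682, for an endonuclease/exonuclease/phosphatase protein (38.3 FPKM in Δ*czt-1* STS against 3.14 FPKM in wild type STS, 3.25). The lower ones included NCU09974 with NCU09975, NCU09140 with NCU09141, and NCU06331 with NCU06332, an alpha/beta hydrolase gene (23.9 FPKM in Δ*czt-1* STS against 228 FPKM in wild type STS, -3.20). The sole run of 3 was NCU02676 (12.6 FPKM in Δ*czt-1* STS against 69.0 FPKM in wild type STS, -2.36), NCU02677 and NCU02678 (7.20 FPKM in Δ*czt-1* STS against 36.2 FPKM in wild type STS, -2.18). The middle gene is *arg-3* (NCU02677), for the large subunit of the carbamoyl-phosphate synthase of arginine synthesis, with 104 FPKM in Δ*czt-1* STS and 710.0 FPKM in wild type STS (-2.75) and 275 FPKM in Δ*czt-1* DMSO and 158 FPKM in wild type DMSO. Genes of these runs that stand outside the lists were picked after their values were seen.

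Gene lists were made from words in the deposited descriptions or from named loci, and each is given by its counts and its median beside the 11% higher and 12.4% lower of all genes. The list furthest from the median of all genes was that of ribosome biogenesis and rRNA processing, the nucleolar factors that assemble ribosomal subunits. Of its 79 genes, 70 (88.6%) were at least 2-fold lower in Δ*czt-1* STS and none was 2-fold higher, with a median of -2.03 and quartiles of -2.31 and -1.60. The median member had 2.53 FPKM in Δ*czt-1* STS and 14.1 FPKM in wild type STS, and 42.1 FPKM in Δ*czt-1* DMSO and 48.7 FPKM in wild type DMSO. So both STS libraries were below both DMSO libraries, and Δ*czt-1* STS was the lowest. The nucleolar protein gene *nop-58* (NCU03396), of the small nucleolar particles that methylate rRNA, had 9.38 FPKM in Δ*czt-1* STS and 72.0 FPKM in wild type STS (-2.81). The rRNA helicase gene *rrp-3* (NCU04504) had 0.746 FPKM in Δ*czt-1* STS and 12.96 FPKM in wild type STS (-2.999). NCU03018, of the small nucleolar complex, had 1.06 FPKM in Δ*czt-1* STS and 12.7 FPKM in wild type STS (-2.73). The kinase gene RIO1 (NCU08767) was the only member on the other side, with 28.6 FPKM in Δ*czt-1* STS and 19.7 FPKM in wild type STS (0.52).

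Few cytosolic ribosomal proteins passed 2-fold in either direction. In this list 2 of 82 genes were at least 2-fold higher and 4 at least 2-fold lower, with a median difference of 0.42, and 66 of its genes were higher by any size, most of them by less than 2-fold. Summed over the list the level was 121631 FPKM in Δ*czt-1* STS and 88968 FPKM in wild type STS, and 297811 FPKM in Δ*czt-1* DMSO and 404061 FPKM in wild type DMSO. The gene of S13 (NCU03038) had 2936 FPKM in Δ*czt-1* STS and 1461 FPKM in wild type STS (1.01). That of S22 (NCU06431) had 3035 FPKM in Δ*czt-1* STS and 1516 FPKM in wild type STS (1.001). Both stood at the 2-fold limit. The 4 lower genes were weakly expressed for the list. NCU07547, described as acidic protein P0, had 5.53 FPKM in Δ*czt-1* STS and 25.7 FPKM in wild type STS (-2.03). NCU04225 (L20) had 25.05 FPKM in Δ*czt-1* STS against 71.2 FPKM in wild type STS (-1.47). NCU08299 (L3) had 16.6 FPKM in Δ*czt-1* STS against 41.8 FPKM in wild type STS (-1.29). NCU02951 (S8) had 35.9 FPKM in Δ*czt-1* STS against 85.9 FPKM in wild type STS (-1.24). All 4 had under 100 FPKM in both STS libraries. With DMSO, NCU07547, NCU04225 and NCU08299 had 112, 88.6 and 105 FPKM in Δ*czt-1* DMSO, where the median of the list was 3907 FPKM. Whether these low members belong to the cytosolic ribosome was not tested.

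The rest of the protein synthesis machinery lay between these lists. Of RNA polymerases I and III, which transcribe rRNA and tRNA, 0 of 12 genes were at least 2-fold higher and 5 at least 2-fold lower, with a median difference of -0.75. The second subunit of polymerase I, *un-18* (NCU08616), had 2.43 FPKM in Δ*czt-1* STS and 14.6 FPKM in wild type STS (-2.18). The polymerase III subunit gene *rpc-3* (NCU03560) had 1.91 FPKM in Δ*czt-1* STS and 11.3 FPKM in wild type STS (-2.08). Among cytosolic translation factors, 0 of 35 genes were at least 2-fold higher and 10 at least 2-fold lower, with a median difference of -0.59. Elongation factor 3 (NCU07922), which fungi need for peptide elongation, had 154 FPKM in Δ*czt-1* STS and 487 FPKM in wild type STS (-1.66). Initiation factor 4E (NCU02076), which binds the mRNA cap, had 41.8 FPKM in Δ*czt-1* STS and 116 FPKM in wild type STS (-1.45). For tRNA synthetases, 0 of 38 genes were at least 2-fold higher and 3 at least 2-fold lower, with a median difference of -0.01.

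**Figure D3:**
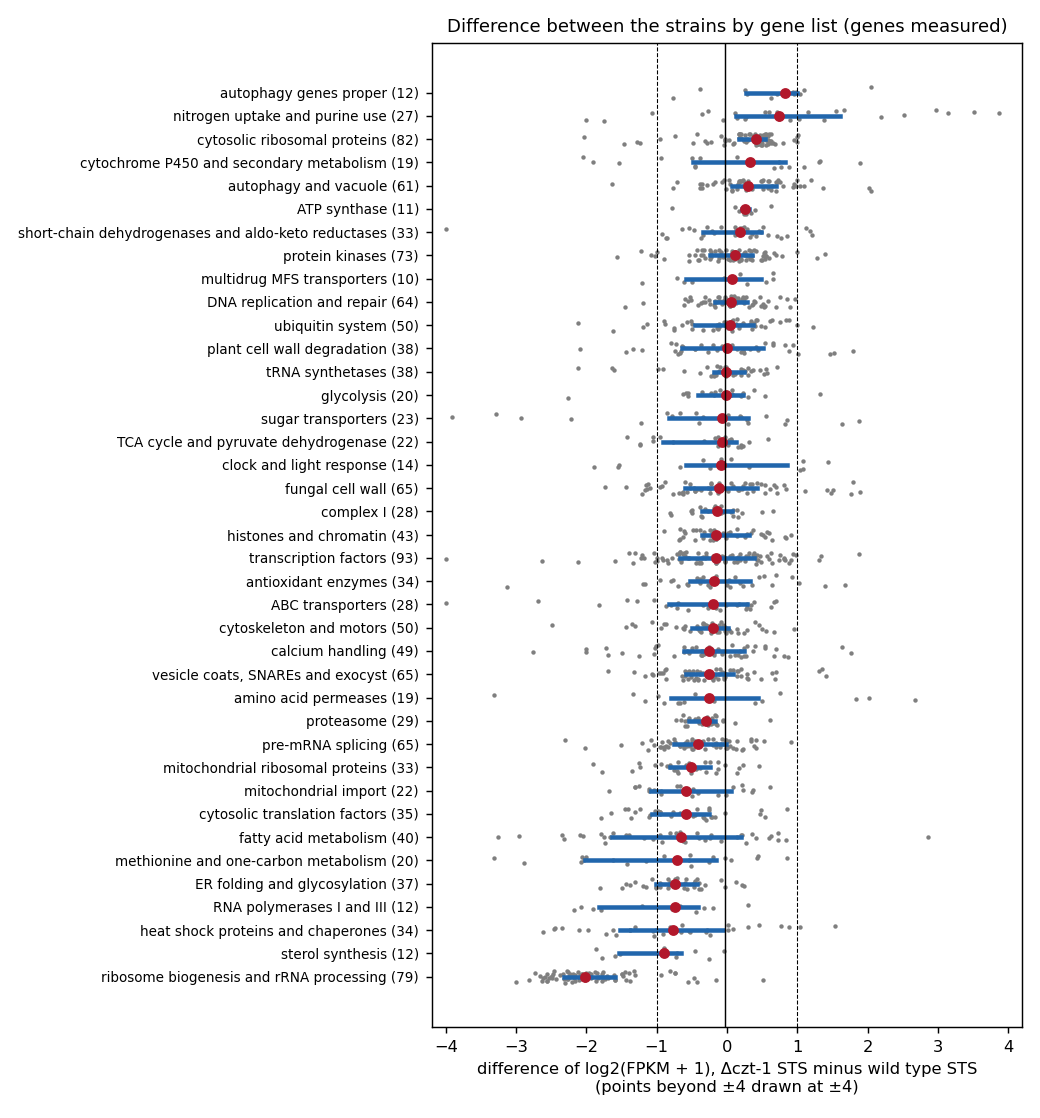
Each grey point is a gene, placed by its difference of log2(FPKM + 1) between Δ*czt-1* STS and wild type STS, for the lists with at least 10 measured genes; red points are medians, blue bars run between the quartiles, the solid line is the median of all genes and the dashed lines mark 2-fold. The list of ribosome biogenesis stands lowest at -2.03, and sterol synthesis, chaperones, RNA polymerases I and III and ER folding follow at -0.89, -0.77, -0.75 and -0.75.

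Among genes for protein folding in the endoplasmic reticulum (ER), 0 of 37 genes were at least 2-fold higher and 10 at least 2-fold lower, with a median difference of -0.75. The 2-fold lower share was 27.03%, and 34 of the genes were lower by any size, beside 3981 of 7763 of all genes. The main ER chaperone gene *grp78* (NCU03982) had 208 FPKM in Δ*czt-1* STS and 731 FPKM in wild type STS (-1.81) and 328 FPKM in Δ*czt-1* DMSO and 294 FPKM in wild type DMSO. The calreticulin gene (NCU09265), for a calcium-binding chaperone of glycoproteins, had 96.9 FPKM in Δ*czt-1* STS and 274 FPKM in wild type STS (-1.49) and 187 FPKM in Δ*czt-1* DMSO and 165 FPKM in wild type DMSO. Of the disulfide isomerases, which form disulfide bonds in secreted proteins, NCU00813 had 23.4 FPKM in Δ*czt-1* STS against 64.9 FPKM in wild type STS (-1.43). NCU09223 had 211 FPKM in Δ*czt-1* STS against 441 FPKM in wild type STS (-1.06). In *grp78*, calreticulin and both isomerases the wild type STS library was the highest of the 4. The regulators of the unfolded protein response, which adjusts folding capacity, were closer: *hac1* (NCU01856) had 62.1 FPKM in Δ*czt-1* STS and 103 FPKM in wild type STS (-0.72). The sensor kinase gene *stk-14* (NCU02202), described as IRE1-type, had 22.6 FPKM in Δ*czt-1* STS and 29.5 FPKM in wild type STS (-0.37). Of the 4 genes in that list, which shares *grp78* and NCU09223 with the ER list, 2 were at least 2-fold lower (median -0.89).

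Secretion and chaperone genes elsewhere were less uniform in direction. Of vesicle coat, SNARE and exocyst genes, 3 of 65 genes were at least 2-fold higher and 5 at least 2-fold lower, with a median difference of -0.26. The lower ones included NCU08607, of the ER-Golgi intermediate compartment, with 28.6 FPKM in Δ*czt-1* STS against 95.2 FPKM in wild type STS (-1.70). The ADP-ribosylation factor family gene NCU08618, a higher one, had 31.3 FPKM in Δ*czt-1* STS against 11.1 FPKM in wild type STS (1.41). Among heat shock proteins and chaperones, 2 of 34 genes were at least 2-fold higher and 15 at least 2-fold lower, with a median difference of -0.77. The 2-fold lower share was 44.1%, above the 27.03% of the ER list, so the lower levels were not particular to the ER. Mitochondrial *hsp60* (NCU01589) had 54.3 FPKM in Δ*czt-1* STS and 305 FPKM in wild type STS (-2.47). The cytosolic chaperone gene *hsp70-1* (NCU09602) had 189 FPKM in Δ*czt-1* STS against 1039 FPKM in wild type STS (-2.45). *hsp80* (NCU04142), the HSP90 gene of this fungus, had 158 FPKM in Δ*czt-1* STS against 625 FPKM in wild type STS (-1.98). The DnaJ family gene NCU07414 had 41.4 FPKM in Δ*czt-1* STS against 260.2 FPKM in wild type STS (-2.62). On the other side, the DnaJ domain gene NCU12072 had 35.3 FPKM in Δ*czt-1* STS against 11.51 FPKM in wild type STS (1.54). The DnaJ domain gene NCU02491 had 48.6 FPKM in Δ*czt-1* STS against 23.2 FPKM in wild type STS (1.04).

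Of mitochondrial ribosomal proteins, 0 of 33 genes were at least 2-fold higher and 6 at least 2-fold lower, with a median difference of -0.52. The 2-fold lower share was 18.2%, and the list had a negative median, of -0.24, with DMSO as well. In the protein import machinery, 0 of 22 genes were at least 2-fold higher and 7 at least 2-fold lower, with a median difference of -0.59. In the import list *tim44* (NCU03229), which tethers the import motor, had 11.45 FPKM in Δ*czt-1* STS and 39.1 FPKM in wild type STS (-1.69). *tom40* (NCU01179), the channel of the outer membrane, had 65.5 FPKM in Δ*czt-1* STS and 158 FPKM in wild type STS (-1.26). The subunits of the respiratory chain, which pump protons, and of the ATP synthase held no 2-fold difference. For complex I, 0 of 28 genes were at least 2-fold higher and 0 at least 2-fold lower, with a median difference of -0.15. Complexes III and IV and the ATP synthase had medians of 0.11, 0.27 and 0.26 over 6, 5 and 11 genes. The ATP synthase alpha subunit *atp-1* (NCU02514), of the catalytic head, had 1728 FPKM in Δ*czt-1* STS and 1441 FPKM in wild type STS (0.26).

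Of the 5 genes for branches of respiration that bypass these complexes, 2 were at least 2-fold lower (median -0.92). Alternative NADH dehydrogenases are single-subunit enzymes that do not pump protons. Their gene *ndi-1* (NCU00153) had 8.36 FPKM in Δ*czt-1* STS against 49.8 FPKM in wild type STS (-2.44). *nde-2* (NCU08980) had 37.5 FPKM in Δ*czt-1* STS against 124 FPKM in wild type STS (-1.70). Without the drug *ndi-1* had 113 FPKM in Δ*czt-1* DMSO and 77.0 FPKM in wild type DMSO and *nde-2* had 361 FPKM in Δ*czt-1* DMSO and 401 FPKM in wild type DMSO. The third enzyme, *nde-1* (NCU05225), had 18.4 FPKM in Δ*czt-1* STS and 17.9 FPKM in wild type STS (0.04). The alternative oxidase *aod-1* (NCU07953), which passes electrons straight to oxygen, had 9.77 FPKM in Δ*czt-1* STS and 19.3 FPKM in wild type STS (-0.92) but 81.8 FPKM in Δ*czt-1* DMSO and 369 FPKM in wild type DMSO, so the strains were further apart without the drug. Its relative *aod-3* (NCU04874) had 1.13 FPKM in Δ*czt-1* STS and 0.124 FPKM in wild type STS (0.93). In the TCA cycle and pyruvate dehydrogenase list, 0 of 22 genes were at least 2-fold higher and 5 at least 2-fold lower, with a median difference of -0.08. The aconitate hydratase gene NCU00977 had 9.95 FPKM in Δ*czt-1* STS against 28.3 FPKM in wild type STS (-1.42). The aconitate hydratase gene NCU04280 had 49.5 FPKM in Δ*czt-1* STS against 118 FPKM in wild type STS (-1.23).

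Central carbon metabolism showed no common direction. In glycolysis, 1 of 20 genes was at least 2-fold higher and 1 at least 2-fold lower, with a median difference of -0.02. Hexokinase-2 (NCU06996) had 11.7 FPKM in Δ*czt-1* STS against 4.09 FPKM in wild type STS (1.32). A phosphoglycerate mutase (NCU09489) had 3.05 FPKM in Δ*czt-1* STS against 18.5 FPKM in wild type STS (-2.27). Of the fermentation, glyoxylate and gluconeogenesis genes, the alcohol dehydrogenase gene *adh-1* (NCU01754) had 48.2 FPKM in Δ*czt-1* STS and 10.1 FPKM in wild type STS (2.15). Isocitrate lyase *acu-3* (NCU04230), of acetate use, had 125 FPKM in Δ*czt-1* STS against 364 FPKM in wild type STS (-1.53). Acetyl-CoA synthetase *acu-5* (NCU06836), of the same use, had 118 FPKM in Δ*czt-1* STS against 342 FPKM in wild type STS (-1.53). Over the 8 genes of that list the median was -0.06. Sugar uptake held larger differences: 2 of 23 genes were at least 2-fold higher and 5 at least 2-fold lower, with a median difference of -0.07. Beside *hgt-1*, the high affinity glucose transporter gene NCU05627 had 17.7 FPKM in Δ*czt-1* STS and 142 FPKM in wild type STS (-2.94). The monosaccharide transporter gene NCU04537 had 1.71 FPKM in Δ*czt-1* STS and 25.4 FPKM in wild type STS (-3.28). The invertase gene *inv* (NCU04265), whose enzyme splits the sucrose of the medium, had 46.6 FPKM in Δ*czt-1* STS and 322 FPKM in wild type STS (-2.76) and 71.3 FPKM in Δ*czt-1* DMSO and 64.7 FPKM in wild type DMSO.

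Fatty acids and sterols build the membranes of the cell. In the fatty acid list, which holds synthesis and breakdown, 1 of 40 genes was at least 2-fold higher and 15 at least 2-fold lower, with a median difference of -0.65. Acetyl-CoA carboxylase (NCU08535), the entry step of synthesis, had 116 FPKM in Δ*czt-1* STS and 598 FPKM in wild type STS (-2.35). The fatty acid synthase subunit *cel-1* (NCU07308) had 120.5 FPKM in Δ*czt-1* STS against 407 FPKM in wild type STS (-1.75). The subunit *cel-2* (NCU07307) had 122.8 FPKM in Δ*czt-1* STS against 380.3 FPKM in wild type STS (-1.62). Of the enzymes that lengthen and desaturate the chains, the elongase NCU06694 had 54.4 FPKM in Δ*czt-1* STS against 528 FPKM in wild type STS (-3.26). The elongase NCU08976 had 160.5 FPKM in Δ*czt-1* STS against 808 FPKM in wild type STS (-2.32). The D12/D15 desaturase NCU09497 had 26.9 FPKM in Δ*czt-1* STS against 217 FPKM in wild type STS (-2.96). The acetyl-CoA carboxylase, synthase and elongase genes were highest in wild type STS of all 4 libraries. The D12/D15 desaturase was instead higher without the drug, with 489 FPKM in Δ*czt-1* DMSO and 544 FPKM in wild type DMSO.

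The sole member at least 2-fold higher was NCU09473, described as a 3-ketoacyl-acyl carrier protein reductase, with 2117 FPKM in Δ*czt-1* STS and 291 FPKM in wild type STS (2.86) and 18.6 FPKM in Δ*czt-1* DMSO and 20.7 FPKM in wild type DMSO. It was thus high in both STS libraries and highest in the mutant. Sterol synthesis makes ergosterol, the main sterol of fungal membranes. All 12 measured sterol genes were lower by any size and 4 at least 2-fold, with a median of -0.89. The C-8 sterol isomerase *erg-1* (NCU04156) had 153 FPKM in Δ*czt-1* STS and 561 FPKM in wild type STS (-1.87). The phosphomevalonate kinase NCU08671 had 30.1 FPKM in Δ*czt-1* STS against 106 FPKM in wild type STS (-1.78). The sterol methyltransferase *erg-4* (NCU03006) had 67.8 FPKM in Δ*czt-1* STS against 206 FPKM in wild type STS (-1.59). The HMG-CoA synthase NCU03922 had 157 FPKM in Δ*czt-1* STS against 453 FPKM in wild type STS (-1.53). The closest pair was that of diphosphomevalonate decarboxylase (NCU11381), 184 FPKM in Δ*czt-1* STS against 190.0 FPKM in wild type STS (-0.05).

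A list of methionine and one-carbon metabolism was drawn up after the values were seen, so its counts only describe it. This pathway passes one-carbon units from serine through folate to methionine and S-adenosylmethionine, the methyl donor of the cell. In it 0 of 20 genes were at least 2-fold higher and 9 at least 2-fold lower, with a median difference of -0.72. Methionine synthase *met-8* (NCU06512) had 202 FPKM in Δ*czt-1* STS and 2024 FPKM in wild type STS (-3.32) and 3488 FPKM in Δ*czt-1* DMSO and 2858 FPKM in wild type DMSO. The methylenetetrahydrofolate reductase NCU07690, which makes the methyl donor for that enzyme, had 27.4 FPKM in Δ*czt-1* STS and 208 FPKM in wild type STS (-2.88) and 356 FPKM in Δ*czt-1* DMSO and 251 FPKM in wild type DMSO. Serine hydroxymethyltransferase *for* (NCU02274), at the entry, had 321 FPKM in Δ*czt-1* STS and 866 FPKM in wild type STS (-1.43). In *met-8* and NCU07690 the Δ*czt-1* STS library stood far below the 3 others.

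For the steps after methionine, S-adenosylmethionine synthetase *eth-1* (NCU02657) had 151 FPKM in Δ*czt-1* STS and 609 FPKM in wild type STS (-2.01) and 1318 FPKM in Δ*czt-1* DMSO and 1645 FPKM in wild type DMSO. Adenosylhomocysteinase *cys-18* (NCU07930), which clears the product of methylation, had 357 FPKM in Δ*czt-1* STS and 1489.8 FPKM in wild type STS (-2.06) and 2246 FPKM in Δ*czt-1* DMSO and 2395 FPKM in wild type DMSO. S-adenosylmethionine decarboxylase *spe-2* (NCU01083), of polyamine synthesis, had 8.41 FPKM in Δ*czt-1* STS and 28.01 FPKM in wild type STS (-1.62) and 87.2 FPKM in Δ*czt-1* DMSO and 69.5 FPKM in wild type DMSO. In these 3 genes both STS libraries were below both DMSO libraries and Δ*czt-1* STS was the lowest. The second entry described as methionine synthase, NCU10020, had 70.0 FPKM in Δ*czt-1* STS and 71.4 FPKM in wild type STS (-0.03). The cystathionine gamma-synthase *met-7* (NCU02430), of the sulfur branch, had 53.6 FPKM in Δ*czt-1* STS and 61.5 FPKM in wild type STS (-0.19). The difference in this list was thus not shared by every member, and 4 of them were higher by any size.

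**Figure D4:**
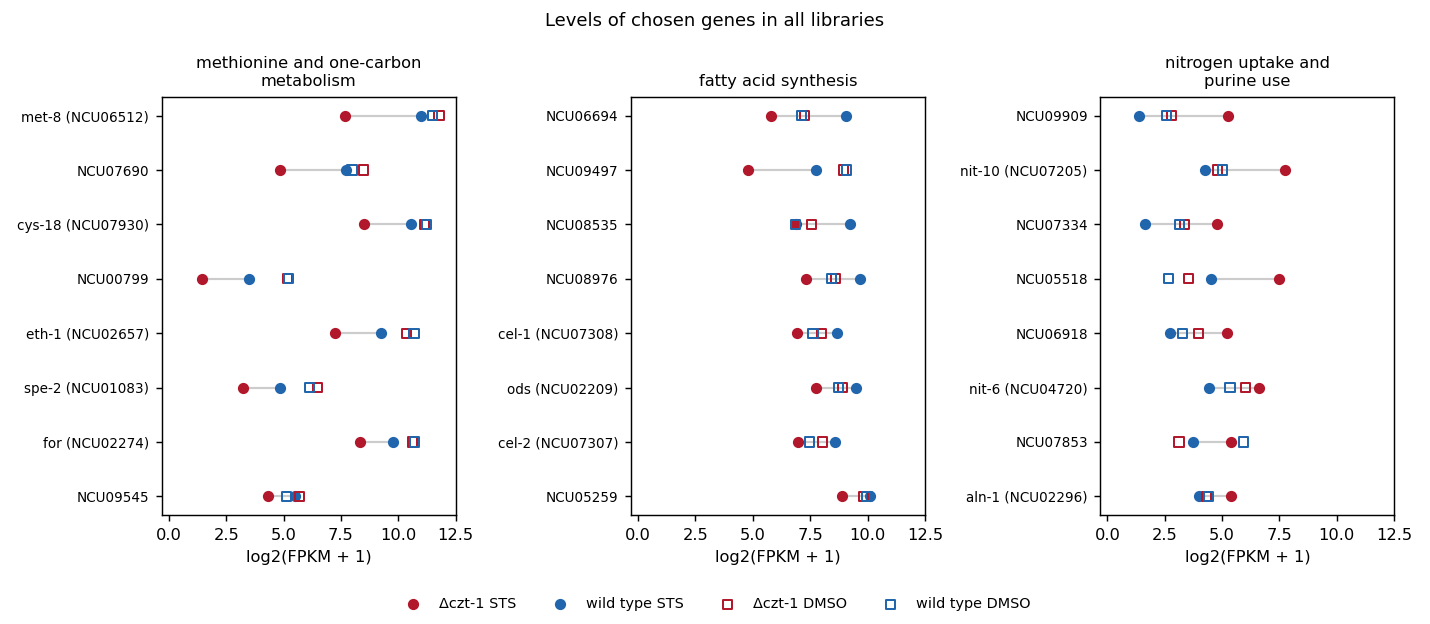
Points give log2(FPKM + 1) in each library for 8 genes in each panel, ordered by the size of the difference between the STS libraries, with filled circles for STS, open squares for DMSO, red for Δ*czt-1* and blue for wild type. The genes of one-carbon metabolism and fatty acid synthesis have Δ*czt-1* STS at the left of wild type STS, and those of nitrogen uptake and purine use have it at the right; the genes were picked after their values were seen.

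A second list drawn up after the values were seen, of nitrogen uptake and purine use, had these counts: 11 of 27 genes were at least 2-fold higher and 3 at least 2-fold lower, with a median difference of 0.74. These genes let the fungus use nitrate, urea and purines when ammonium or glutamine is short. Beside *nit-10*, nitrite reductase *nit-6* (NCU04720) had 97.6 FPKM in Δ*czt-1* STS and 20.6 FPKM in wild type STS (2.19). Nitrate reductase *nit-3* (NCU05298) had 77.1 FPKM in Δ*czt-1* STS and 45.7 FPKM in wild type STS (0.74). The uracil permease NCU07334 had 26.3 FPKM in Δ*czt-1* STS and 2.09 FPKM in wild type STS (3.14). The purine permease NCU06918 had 36.5 FPKM in Δ*czt-1* STS against 5.56 FPKM in wild type STS (2.52). The peroxisomal copper amine oxidase NCU05518 had 179 FPKM in Δ*czt-1* STS against 21.9 FPKM in wild type STS (2.97). Of purine breakdown, uricase (NCU07853) had 40.5 FPKM in Δ*czt-1* STS and 12.2 FPKM in wild type STS (1.66). Allantoinase *aln-1* (NCU02296) had 40.6 FPKM in Δ*czt-1* STS and 15.01 FPKM in wild type STS (1.38). The list was not uniform: the urea transporter NCU01977 had 39.7 FPKM in Δ*czt-1* STS and 136 FPKM in wild type STS (-1.75). The purine-cytosine permease NCU04195 had 4.44 FPKM in Δ*czt-1* STS and 20.8 FPKM in wild type STS (-2.003). Amino acid permeases were also mixed, with 3 of 19 at least 2-fold higher, 3 lower and a median of -0.26. NCU07175 had 62.4 FPKM in Δ*czt-1* STS against 16.8 FPKM in wild type STS (1.84). NCU05776 had 28.8 FPKM in Δ*czt-1* STS against 295 FPKM in wild type STS (-3.31).

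Of autophagy and vacuole genes, 7 of 61 genes were at least 2-fold higher and 1 at least 2-fold lower, with a median difference of 0.29. The share that was 2-fold higher, 11.48%, was close to the 11% of all genes, and the share that was 2-fold lower was 1.64%, against 12.4% of all genes. By any size 48 were higher, beside 3782 of 7763 of all genes. The kinase gene *apg-1* (NCU00188, ATG1), which starts autophagosome formation, had 53.8 FPKM in Δ*czt-1* STS and 12.3 FPKM in wild type STS (2.05) and 9.75 FPKM in Δ*czt-1* DMSO and 4.87 FPKM in wild type DMSO. The vacuolar amino acid transporter NCU06231 had 25.9 FPKM in Δ*czt-1* STS and 5.62 FPKM in wild type STS (2.02). In a smaller list of 12 genes described by an autophagy name, also made after the values were seen, 3 were at least 2-fold higher and the median was 0.82. This list also had a positive median, of 0.42, with DMSO. *atg-8* (NCU01545), whose product coats the autophagosome membrane, had 561 FPKM in Δ*czt-1* STS and 470.3 FPKM in wild type STS (0.25), so it was high in both STS libraries, with 150.3 FPKM in Δ*czt-1* DMSO and 196 FPKM in wild type DMSO.

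Of the ABC transporters, 0 of 28 genes were at least 2-fold higher and 6 at least 2-fold lower, with a median difference of -0.21. After *abc3* the lowest was NCU04097 with 17.2 FPKM in Δ*czt-1* STS and 116 FPKM in wild type STS (-2.68) and 142 FPKM in Δ*czt-1* DMSO and 212 FPKM in wild type DMSO. NCU07546, described as multidrug resistance protein MDR, had 8.80 FPKM in Δ*czt-1* STS and 33.5 FPKM in wild type STS (-1.82), against a difference of 1.08 with DMSO, where it had 14.8 FPKM in Δ*czt-1* DMSO and 6.51 FPKM in wild type DMSO. The peroxisomal transporter NCU08382 had 23.3 FPKM in Δ*czt-1* STS and 49.0 FPKM in wild type STS (-1.04). The pump gene *cdr4* (NCU05591) had 11.9 FPKM in Δ*czt-1* STS and 14.6 FPKM in wild type STS (-0.28). NCU02544 had 47.2 FPKM in Δ*czt-1* STS and 47.6 FPKM in wild type STS (-0.01). NCU03591, a bile acid permease, had 86.4 FPKM in Δ*czt-1* STS and 55.5 FPKM in wild type STS (0.63). These 3 were less than 2-fold apart, as were the next 3. The exporter gene *atrf* (NCU08056) had 5.52 FPKM in Δ*czt-1* STS against 4.79 FPKM in wild type STS (0.17). *atrf-2* (NCU10009) had 14.2 FPKM in Δ*czt-1* STS against 10.98 FPKM in wild type STS (0.34). NCU07276 had 10.4 FPKM in Δ*czt-1* STS against 8.42 FPKM in wild type STS (0.27). No other gene of the list came near the size of the difference in *abc3*. Of the multidrug transporters of the MFS family, which use the proton gradient, 1 of 10 was at least 2-fold lower and none higher, with a range of -1.22 to 0.66.

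Of 6 cell death effectors, 1 was at least 2-fold higher and 1 lower, with a median of -0.14. The poly(ADP-ribose) polymerase gene *parp* (NCU08852), which acts in DNA damage signalling, had 20.6 FPKM in Δ*czt-1* STS and 2.48 FPKM in wild type STS (2.63) and 0.720 FPKM in Δ*czt-1* DMSO and 0.610 FPKM in wild type DMSO. *amid-2* (NCU12058), of a family of oxidoreductases that includes AIF, had 2.60 FPKM in Δ*czt-1* STS and 10.04 FPKM in wild type STS (-1.62). With DMSO it had 1.96 FPKM in Δ*czt-1* DMSO and 1.73 FPKM in wild type DMSO. The level of *amid-2* was thus highest in wild type STS, though below the median of 15.1 FPKM over all genes in that library. Its relative *amid* (NCU06061) had 4.02 FPKM in Δ*czt-1* STS against 6.90 FPKM in wild type STS (-0.65). *aif* (NCU05850), for the apoptosis-inducing factor, had 77.4 FPKM in Δ*czt-1* STS against 50.9 FPKM in wild type STS (0.59). The level of *aif* was far above its DMSO levels of 2.61 FPKM in Δ*czt-1* DMSO and 3.64 FPKM in wild type DMSO in both STS libraries. Of the metacaspases, which are caspase-like proteases, NCU09882 had 29.9 FPKM in Δ*czt-1* STS against 58.2 FPKM in wild type STS (-0.94). NCU02400 had 48.8 FPKM in Δ*czt-1* STS against 37.5 FPKM in wild type STS (0.37).

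The genes that the study linked to *czt-1* or to its expression by association mapping in wild isolates held 1 of 7 at least 2-fold higher and 2 lower. The lower ones were *tah-3* and *amid-2*, whose values are given above. NCU06977 had 25.7 FPKM in Δ*czt-1* STS and 7.54 FPKM in wild type STS (1.64) and 1.23 FPKM in Δ*czt-1* DMSO and 3.14 FPKM in wild type DMSO. *tah-3* (NCU03686), for another zinc cluster factor, had 13.4 FPKM in Δ*czt-1* STS and 31.1 FPKM in wild type STS (-1.16), but without the drug the mutant was the higher one, with 89.4 FPKM in Δ*czt-1* DMSO and 27.2 FPKM in wild type DMSO (1.68). Catalase-1 (*cat-1*, NCU08791), which degrades hydrogen peroxide, had 28.2 FPKM in Δ*czt-1* STS and 42.6 FPKM in wild type STS (-0.58) and 1.37 FPKM in Δ*czt-1* DMSO and 3.29 FPKM in wild type DMSO. The other 3 were, like *cat-1*, less than 2-fold apart. NCU06609 had 26.8 FPKM in Δ*czt-1* STS against 17.96 FPKM in wild type STS (0.55). NCU03273, described as an NF-X1 finger transcription factor, had 32.5 FPKM in Δ*czt-1* STS against 28.6 FPKM in wild type STS (0.18). NCU02959 had 4.28 FPKM in Δ*czt-1* STS against 4.45 FPKM in wild type STS (-0.04). Over the antioxidant enzymes 3 of 34 genes were at least 2-fold higher and 3 at least 2-fold lower, with a median difference of -0.19. A thioredoxin gene (NCU03714) was the lowest with 4.98 FPKM in Δ*czt-1* STS against 51.4 FPKM in wild type STS (-3.13). Catalase-peroxidase *cat-2* (NCU05770) had 16.1 FPKM in Δ*czt-1* STS against 5.53 FPKM in wild type STS (1.39).

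In the calcium handling list, 2 of 49 genes were at least 2-fold higher and 10 at least 2-fold lower, with a median difference of -0.25. The list includes *inv*, calreticulin and *nde-2*, which are described above. Its most negative member was the invertase gene *inv* (-2.76), so the counts are not of calcium handling genes alone. The calcium pump of the plasma membrane *nca-2* (NCU04736) had 28.5 FPKM in Δ*czt-1* STS and 117 FPKM in wild type STS (-2.001) and 43.3 FPKM in Δ*czt-1* DMSO and 30.5 FPKM in wild type DMSO. The vacuolar exchanger *cax* (NCU07075) had 12.4 FPKM in Δ*czt-1* STS and 43.2 FPKM in wild type STS (-1.73) and 18.5 FPKM in Δ*czt-1* DMSO and 14.1 FPKM in wild type DMSO. The secretory phospholipase A2 gene NCU06650 had 30.9 FPKM in Δ*czt-1* STS and 127 FPKM in wild type STS (-2.01). With DMSO it had 89.7 FPKM in Δ*czt-1* DMSO and 95.1 FPKM in wild type DMSO. In *nca-2*, *cax* and NCU06650, wild type STS was above the other libraries and Δ*czt-1* STS below them. The channel gene NCU11680, described as Yvc1, had 27.9 FPKM in Δ*czt-1* STS and 7.48 FPKM in wild type STS (1.77) and 5.83 FPKM in Δ*czt-1* DMSO and 27.7 FPKM in wild type DMSO, so the order of the strains was reversed.

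Regulators other than *czt-1* had smaller differences. Of transcription factors, 3 of 93 genes were at least 2-fold higher and 12 at least 2-fold lower, with a median difference of -0.16, and *czt-1* is 1 of the lower ones. The C2H2 factor RfeC (NCU05285) had 6.41 FPKM in Δ*czt-1* STS and 45.1 FPKM in wild type STS (-2.64). A bZIP factor (NCU00223) had 13.5 FPKM in Δ*czt-1* STS and 61.7 FPKM in wild type STS (-2.12). On the other side RfeD (NCU02739) had 34.3 FPKM in Δ*czt-1* STS and 8.66 FPKM in wild type STS (1.87). *ace1* (NCU09333) had 270.0 FPKM in Δ*czt-1* STS and 108 FPKM in wild type STS (1.31). Protein kinases, the class of proteins that staurosporine inhibits, stood near the median of all genes: 2 of 73 genes were at least 2-fold higher and 4 at least 2-fold lower, with a median difference of 0.11. The protein kinase A subunit gene *pkac-2* (NCU00682) had 53.6 FPKM in Δ*czt-1* STS and 19.8 FPKM in wild type STS (1.39).

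All 5 conidiation genes of the list, which are known for spore formation, were at least 2-fold higher in Δ*czt-1* STS (median 1.38). *con-8* (NCU09235) had 25.3 FPKM in Δ*czt-1* STS and 5.76 FPKM in wild type STS (1.96). *con-10* (NCU07325) had 30.5 FPKM in Δ*czt-1* STS and 8.14 FPKM in wild type STS (1.78). *con-6* (NCU08769) had 15.2 FPKM in Δ*czt-1* STS and 5.28 FPKM in wild type STS (1.37). Without the drug these were low in both strains, and *con-10* had 1.29 FPKM in Δ*czt-1* DMSO and 1.26 FPKM in wild type DMSO. The regulator *fl* (NCU08726) had 7.19 FPKM in Δ*czt-1* STS and 2.15 FPKM in wild type STS (1.38). The hydrophobin *eas* (NCU08457), which coats conidia, had 95.7 FPKM in Δ*czt-1* STS and 44.9 FPKM in wild type STS (1.07), with 44.0 FPKM in Δ*czt-1* DMSO and 20.5 FPKM in wild type DMSO. In clock and light genes, 4 of 14 genes were at least 2-fold higher and 3 at least 2-fold lower, with a median difference of -0.08. The photoreceptor gene *wc-1* (NCU02356) had 6.13 FPKM in Δ*czt-1* STS against 19.8 FPKM in wild type STS (-1.55). The photoreceptor gene *vvd* (NCU03967) had 86.8 FPKM in Δ*czt-1* STS against 40.5 FPKM in wild type STS (1.08). The clock helicase *frh* (NCU03363) had 5.08 FPKM in Δ*czt-1* STS against 21.6 FPKM in wild type STS (-1.90).

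Cell wall and secondary metabolism lists were divided. In fungal cell wall genes 7 of 65 genes were at least 2-fold higher and 8 at least 2-fold lower, with a median difference of -0.12. The wall protein gene *ncw-3* (NCU07817) had 42.0 FPKM in Δ*czt-1* STS against 10.6 FPKM in wild type STS (1.89). The wall protein gene *ncw-1* (NCU05137) had 12.49 FPKM in Δ*czt-1* STS against 2.90 FPKM in wild type STS (1.79). The chitinase *gh18-5* (NCU04554) had 92.7 FPKM in Δ*czt-1* STS against 254 FPKM in wild type STS (-1.44). Of plant cell wall degrading enzymes 4 of 38 genes were at least 2-fold higher and 4 at least 2-fold lower, with a median difference of -0.01, and the endoglucanase NCU05404 had 1488 FPKM in Δ*czt-1* STS and 517 FPKM in wild type STS (1.52). In cytochrome P450 and secondary metabolism 4 of 19 genes were at least 2-fold higher and 3 at least 2-fold lower, with a median difference of 0.33. NCU09115 had 29.6 FPKM in Δ*czt-1* STS against 126 FPKM in wild type STS (-2.05). NCU05376 had 10.5 FPKM in Δ*czt-1* STS against 2.11 FPKM in wild type STS (1.89). Short-chain dehydrogenases and aldo-keto reductases, a list that *mig-9* belongs to, had a median of 0.18, with 3 of 33 at least 2-fold higher and 1 lower.

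The remaining lists held few 2-fold differences. Among histones and chromatin genes none of 43 differed 2-fold, and among proteasome subunits, which degrade tagged proteins, none of 29, although 27 of these were lower by any size (median -0.29). DNA replication and repair had 2 of 64 genes at least 2-fold lower and none higher (median 0.05). For pre-mRNA splicing, 0 of 65 genes were at least 2-fold higher and 7 at least 2-fold lower, with a median difference of -0.42. For the cytoskeleton, 0 of 50 genes were at least 2-fold higher and 5 at least 2-fold lower, with a median difference of -0.21. For the ubiquitin system, 1 of 50 genes was at least 2-fold higher and 4 at least 2-fold lower, with a median difference of 0.04. Both measured HET domain genes, of a family known for heterokaryon incompatibility, were lower: NCU10003 had 2.11 FPKM in Δ*czt-1* STS and 13.8 FPKM in wild type STS (-2.26). NCU04912 had 1.25 FPKM in Δ*czt-1* STS and 3.87 FPKM in wild type STS (-1.11).

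The strain difference with STS was then set beside the strain difference with DMSO, which uses none of the same libraries. With DMSO, 197 of the same 7763 genes (2.54%) were at least 2-fold higher in Δ*czt-1* and 175 (2.25%) lower, with an SD over genes of 0.52. Of the 1821 genes that differed 2-fold with STS, 35 (1.92%) differed 2-fold in the same direction with DMSO and 72 (3.95%) in the opposite direction. As shares of the 372 genes that differed 2-fold with DMSO, these were 9.41% and 19.4%. Across the 7763 genes, Pearson's r was -0.019 and Spearman's rho -0.038, a description over genes that share libraries and are not independent. The genes that were 2-fold higher and those 2-fold lower with STS had median DMSO differences of 0.03 and 0.05.

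The lists were compared in the same way. Ribosome biogenesis had a median of -0.12 with DMSO, ER folding 0.05, sterol synthesis 0.21 and the one-carbon list 0.09. The list of autophagy names, at 0.42, and the mitochondrial ribosomal proteins, at -0.24, had the same sign with DMSO as with STS. The cytosolic ribosomal proteins and complex IV had DMSO medians of -0.38 and -0.81, and the ATP synthase -0.59, with the opposite sign to their STS medians. Some fermentation genes were wide apart without the drug. *cfp* (NCU02193), for a pyruvate decarboxylase, had 30.7 FPKM in Δ*czt-1* DMSO and 428 FPKM in wild type DMSO (-3.76) but 41.5 FPKM in Δ*czt-1* STS and 23.5 FPKM in wild type STS (0.80), and *adh-1* (NCU01754), for the next enzyme of ethanol formation, had 3.41 FPKM in Δ*czt-1* DMSO and 41.8 FPKM in wild type DMSO (-3.28).

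**Figure D5:**
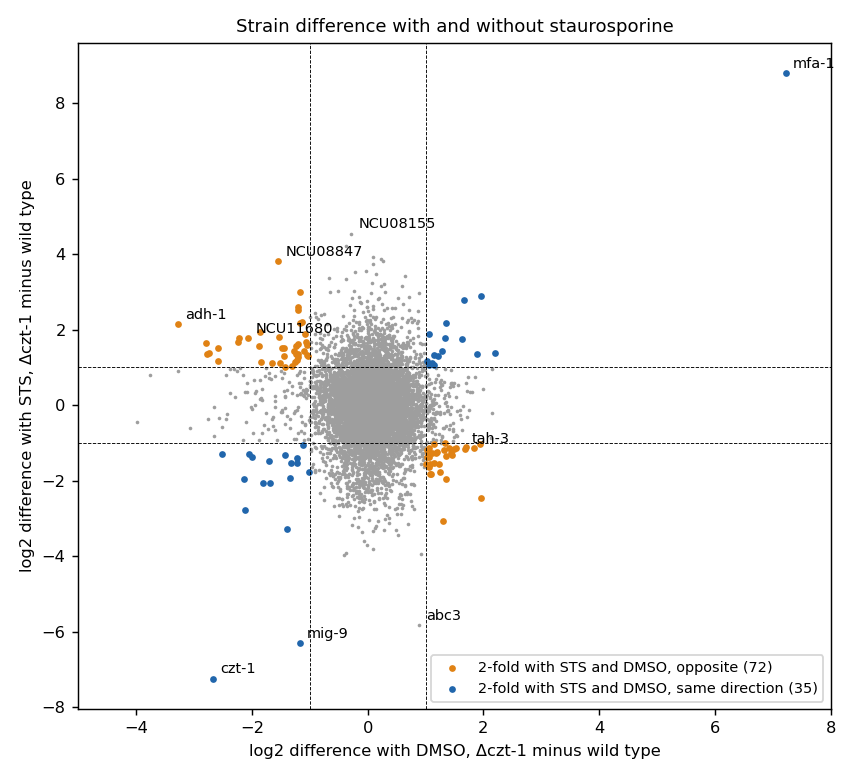
Each point is a gene, with the difference of log2(FPKM + 1) between Δ*czt-1* and wild type with STS on the vertical axis and with DMSO on the horizontal axis; dashed lines mark 2-fold. The cloud is wider along the STS axis (SD 0.93) than along the DMSO axis (SD 0.52), and 35 genes, in blue, passed 2-fold in the same direction on both axes, against 72, in orange, in opposite directions.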

How the data were processed

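The authors mapped single reads of 50 bases, estimated FPKM with Cufflinks and tested their comparisons with Cuffdiff. The submitters' processing notes name TopHat2 2.0.4 and Cufflinks 2.0.2. The genome build is not given in sources used here. The authors deposited 3 tables of FPKM, written with a decimal comma, which also hold fold changes, test statistics, p-values, q-values and calls of their own comparisons, and none of those was used. The FPKM columns of the STS libraries, which stand in separate tables, were joined by gene. A library held in 2 tables had the same values in all 9691 rows.

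Differences of log2(FPKM + 1) were taken over rows with FPKM of at least 1 in either STS library, which understates changes of low genes. FPKM is no count and there is 1 library per group, so no test was run. Calls are by size. The members and the 49 lists were chosen with earlier results of these data known, and 3 lists after the values used here were seen. A rule named *czt-1* and *abc3*, the genes of the paper and the 12 largest differences each way at 10 FPKM or more. It also named the 3 largest 2-fold differences each way in a list at 10 FPKM or more, and all members of lists of up to 12 genes. Other genes in the text, such as *hsp80*, *tom40*, *cel-1*, *nit-6* and *cax*, fall outside this rule and were named with their values known. Gene names and order come from RefSeq for NC12, where 9141 of 9691 rows matched a locus tag. 66 rows join several loci. Columns of samples outside the series: 0. The calculations were tested on simulated data with Python 3, pandas and numpy.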

Additional observations from a re-analysis of the deposited data

Results flagged for a closer look

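Of the 244 genes named by the rule, 9 differed at least 2-fold between the strains in opposite directions with and without the drug. Over all 7763 genes 72 did so, which is 3.95% of the 1821 that differed 2-fold with STS. Many named genes were chosen for a large difference with STS, so their count cannot be set against that share. The change of direction was not tested, since each condition has 1 library. The differences are Δ*czt-1* minus wild type, on the scale of log2(FPKM + 1). Higher in Δ*czt-1* with STS and lower with DMSO were NCU08847, at 3.81 with STS and -1.54 with DMSO, *adh-1* (NCU01754) at 2.15 and -3.28, the cell wall genes *ncw-3* (NCU07817) at 1.89 and -1.09 and *ncw-1* (NCU05137) at 1.79 and -1.54, and the channel gene NCU11680 at 1.77 and -2.07. Lower with STS and higher with DMSO were the ABC transporter gene NCU07546 at -1.82 and 1.08, *wc-1* (NCU02356) at -1.55 and 1.15, the kinesin gene NCU06832 at -1.35 and 1.36, and *tah-3* (NCU03686) at -1.16 and 1.68.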

How the results depend on the processing

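The counts depend on the choices that act on low genes and on the fold. With a pseudocount of 5, 362 genes were at least 2-fold higher and 584 lower in Δ*czt-1* STS, against 857 and 964. With one of 0.1, 1155 were higher and 1127 lower, so that the larger count was then the higher one. With FPKM of at least 10 in either STS library, 474 were higher and 736 lower. At 1.5-fold the counts were 1728 higher and 1824 lower, and at 4-fold 125 and 211. Omitting the FPKM limit changes neither count, since no gene below it can reach 2-fold with a pseudocount of 1. Centring or scaling the libraries gave 893 to 959 higher and 874 to 930 lower genes, and the higher count was also the larger one with equal FPKM sums (924 and 902) and equal upper quartiles (959 and 874). The 35 genes that differed in the same direction with STS and DMSO became 148 with a pseudocount of 0.1, 10 with one of 5, 21 at FPKM of at least 10 and 64 with equal FPKM sums.

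The median of ribosome biogenesis was -2.35 with a pseudocount of 0.1 and -1.27 with one of 5. The list medians that changed sign had a size of at most 0.08 under the scalings, 0.14 under the FPKM limits and 0.01 under the pseudocounts. Of 244 named genes under 5 alternatives, 29 values left the 2-fold side and 11 entered it. A change of direction was counted only for genes at least 2-fold different, and the 0 found was fixed in advance. A pseudocount keeps the sign of a difference, and the scalings moved the list medians by at most 0.08. No paired analysis was possible because each group has 1 library, and for the same reason no library could be left out.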
